A study of Rattus norvegicus with 18 samples.

Results

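The inhibin, activin and follistatin system of the rat ovarian follicle was followed through 10 listed genes: the inhibin subunits Inha, Inhba and Inhbb, the activin-binding proteins Fst and Fstl3, and the receptors Acvr1, Acvr1b, Acvr2a, Acvr2b and Tgfbr3. Its members were the probe sets of the array whose only gene symbol in the platform annotation was one of these names, and 15 of 31099 probe sets met this rule. They covered 9 of the 10 genes. Acvr1b is not analysed here. Of the 15, 12 passed the filter on dim probe sets and were tested among 18155, with at least 1 for each of the 9 genes.

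The arrays came from Crl:CD(SD) rats around ovulation, 3 samples in each of 6 groups, and each sample was made of follicles cut by laser microdissection from frozen ovary sections 8 micrometres thick. RU UF were unruptured follicles taken at 10:00 of estrus from rats given 100 mg/kg RU486 by mouth at 10:00 of proestrus, 24 hours earlier, and RU PeF were follicles taken 12 hours after the same dose, at 22:00 of proestrus. IM UF and IM PeF were the matching follicles 18 and 6 hours after 4 mg/kg indomethacin by mouth at 16:00 of proestrus. Control PoF were post-ovulatory follicles of untreated rats at 10:00 of estrus, and control PeF were follicles of untreated rats at 22:00 of proestrus. The titles call the PeF peri-ovulatory where the design text calls them pre-ovulatory, and the stage field calls the UF post-ovulatory where the titles call them unruptured. RU486 (RU) blocks the progesterone and glucocorticoid receptors, and indomethacin (IM) blocks the cyclooxygenases that make prostaglandins. Treatment and the absence of rupture cannot be told apart at estrus, since only the untreated follicles had ruptured. The labels give 3 animals a group and 15 follicles a phase but not which sample came from which animal, so a p-value here measures the spread between samples and no more.

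Inhibins are dimers of the alpha subunit (Inha) with a beta subunit, beta A (Inhba) or beta B (Inhbb), while dimers of beta subunits alone are activins. Granulosa cells of the follicle make both. Inhibin lowers the release of follicle-stimulating hormone (FSH) by the pituitary and activin raises it, and in the cycling rat circulating inhibin declines after the gonadotrophin surge while FSH remains high into the morning of estrus. Activin binds the type II receptors Acvr2a and Acvr2b, which recruit the type I receptor Acvr1b and activate Smad2 and Smad3. Follistatin (Fst) and follistatin-like 3 (Fstl3) bind activin and keep it from its receptors, and Tgfbr3 (betaglycan) is the co-receptor through which inhibin competes with activin for the type II receptors.

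The promoters of the 3 subunit genes are shown because Inhbb rose in untreated follicles through the same hours in which Inha and Inhba fell. Each is 300 bases from RefSeq (rat build GRCr8), 250 before and 50 after a start site, and 8 of the 10 genes had one. Inha lies at chr9:84443109-84446010 (promoter chr9:84442859-84443158, plus strand), Inhba at chr17:53787159-53810942 (chr17:53804459-53804758, minus strand) and Inhbb at chr13:33083671-33089373 (chr13:33089324-33089623, minus strand). The start site used for Inhba lies inside the annotated span of the gene. Capitals mark matches on either strand to any of 5 motifs, and no 2 matches overlapped. The full cAMP response element was searched as TGACGTCA. Its variant known from the rat Inha promoter is TGCGTCA. A site of the NR5A nuclear receptors was searched as AAGGTCA. For factors of the GATA family the search used AGATAA. A core site of the steroid receptors that RU486 blocks was searched as AGAACA.
Inha: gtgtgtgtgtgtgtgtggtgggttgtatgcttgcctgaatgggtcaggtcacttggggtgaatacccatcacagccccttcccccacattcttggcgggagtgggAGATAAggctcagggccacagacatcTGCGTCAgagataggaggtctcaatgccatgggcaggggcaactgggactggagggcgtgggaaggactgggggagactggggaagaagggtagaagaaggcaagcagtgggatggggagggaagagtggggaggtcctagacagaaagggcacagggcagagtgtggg
Inhba: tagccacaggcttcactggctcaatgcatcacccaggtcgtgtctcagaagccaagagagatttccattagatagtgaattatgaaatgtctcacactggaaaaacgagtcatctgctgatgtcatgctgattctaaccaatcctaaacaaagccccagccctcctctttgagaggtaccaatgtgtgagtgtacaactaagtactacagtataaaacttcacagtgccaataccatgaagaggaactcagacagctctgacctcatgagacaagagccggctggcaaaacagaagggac
Inhbb: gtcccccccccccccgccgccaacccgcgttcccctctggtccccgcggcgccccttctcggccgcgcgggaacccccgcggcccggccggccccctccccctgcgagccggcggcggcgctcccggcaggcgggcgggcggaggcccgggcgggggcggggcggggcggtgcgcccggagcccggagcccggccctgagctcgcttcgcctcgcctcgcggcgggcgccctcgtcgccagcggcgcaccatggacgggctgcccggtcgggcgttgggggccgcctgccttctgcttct
The Inha promoter held TGCGTCA, beginning 119 bases before the start site, and AGATAA, beginning 145 bases before it. Of 33469 rat promoters of the same length 1.90% held the first and 11.6% the second. The full cAMP response element was in 1.83% of them, the NR5A site in 4.61% and the steroid receptor site in 20.7%. None of the 5 motifs occurred in the Inhba and Inhbb windows, whose G and C content was 45.7% and 84.3%, against 59% for Inha. A match is a run of letters only and was not tested for binding.

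The array medians of the deposited signals ran from 4.40 to 27.4, so the signals were quantile-normalized, and all levels below are log2 of the normalized signal plus 2.79. The dimmest array was control PeF 3, which stood apart from the other 17 on the second principal component and had 45.7% of its probe sets above background against up to 75.3% elsewhere. Its effect is given beside the member results it moves most. Among the granulosa cell markers, Cdh2, Gja1, Foxl2, Nr5a2, Serpine2 and Hsd17b1 were above background on all 18 arrays. Cyp19a1 was above it on 17 and Amh on 13. Of the theca markers Nr2f2, Aldh1a1 and Insl3 were above it on all 18, Tcf21 on 17 and Cyp17a1 on 13. The endothelial markers Pecam1, Kdr, Tek, Emcn, Egfl7 and Esam reached all 18 and Vwf 17. Among smooth muscle and pericyte markers, Tagln, Myh11 and Des reached all 18, Acta2, Cnn1, Rgs5 and Pdgfrb 17, and Cspg4 13. The leukocyte markers Cd74 and Cd68 were above background on all 18 arrays. Of the other leukocyte markers Laptm5 was above background on 17 arrays, Csf1r on 14, Ptprc on 13, Cd3e on 6 and Itgam on 0. Of the oocyte markers Zp2 was above it on 14, Gdf9 on 12, Zp3 on 6, Zp1 on 2 and Bmp15 on 0. For Gapdh the 3′ control probe set exceeded the 5′ one by 2.86 to 3.27 on the log2 scale in RU UF, 2.19 to 3.86 in IM UF, 2.07 to 2.31 in control PoF, 2.66 to 2.95 in RU PeF, 2.59 to 3.63 in IM PeF and 2.96 to 4.11 in control PeF, a gap that widens as RNA degrades. Control PoF overlapped neither control PeF nor RU UF in this Gapdh gap, and control PeF lay above RU PeF. The same gap for beta-actin did not separate these groups. It was 4.92 to 5.18 in control PoF, 4.79 to 5.64 in RU UF, 4.235 to 5.93 in control PeF and 4.76 to 5.24 in RU PeF. Control PeF 3 had a Gapdh gap of 4.10 but the lowest beta-actin gap of all arrays. The part of RNA quality in the comparisons of these groups was not tested.

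The time of collection separated the members more than either drug did. At estrus 10 of the 12 tested member probe sets differed from proestrus in untreated follicles, 4 higher and 6 lower, where 39.6% of all tested probe sets did (21.0% higher, 18.5% lower). In RU follicles 10 differed as well, 4 higher and 6 lower (38.8% of all, 19.0% higher and 19.9% lower), and in IM follicles 5 did, 2 higher and 3 lower (33.3% of all, 16.3% higher and 17.0% lower). Against the controls of the same time, RU PeF had 1 member called, higher (7.42% of all, 3.40% higher and 4.03% lower). RU UF had 2, 1 in each direction (8.70% of all, 4.22% higher and 4.47% lower). Called means a Benjamini-Hochberg adjusted p under 0.05 over all tested probe sets in limma, a linear model that shares the estimate of the spread between genes. In bulk samples such as these, fewer cells of a type and less RNA per cell cannot be told apart.

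No member was called by limma for indomethacin. In IM PeF against control PeF 0 of 12 passed, 2 had an unadjusted p under 0.05, and 0% of all probe sets were called while 2074 had such a p. In IM UF against control PoF 0 of 12 passed, 1 had an unadjusted p under 0.05, and 0.0330% of all were called, all lower. The RU and IM comparisons at a time share their 3 control samples, so their values are set side by side and not correlated. The median log2 difference of the 12 members was 0.27 for RU PeF (0.06 over all tested), -0.07 for IM PeF (0.04), 0.08 for RU UF (-0.02) and -0.11 for IM UF (-0.01).

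Inhbb (1377163_at) was the member with the clearest response to RU486, and the response was seen at proestrus. Its log2 level was 8.91, 9.25 and 8.46 in RU PeF, 6.80, 6.86 and 7.18 in IM PeF, and 7.02, 7.13 and 6.94 in control PeF. Every RU array lay above every IM and control array of that hour. The difference of RU PeF from control PeF was 1.85 ± 0.165 (SE; 95% interval 1.5 to 2.19), or 3.59-fold higher, with an adjusted p of 3.14e-06 in limma. It was 1.80 without control PeF 3 (adjusted p = 1.08e-05). In the deposited signals the 2 groups did not overlap either, at 372 to 573 in RU PeF and 15.6 to 172 in control PeF, but with the unscaled signals the difference of 2.71 had an adjusted p of 0.118.

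Indomethacin gave no such difference for Inhbb: IM PeF differed from control PeF by -0.08 (95% interval -0.43 to 0.27; adjusted p = 0.863). RU PeF was above IM PeF by 1.92 ± 0.165 (adjusted p = 1.16e-06), in a comparison with 2 members called, both higher, and 5.23% of all (1.98% higher, 3.25% lower). The RU and IM follicles had been dosed 12 and 6 hours earlier, so the drugs are not matched in time after dosing.

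At estrus Inhbb was high in every group. It stood at 9.66, 9.51 and 9.66 in RU UF, 9.96, 9.95 and 9.97 in IM UF, and 9.90, 9.62 and 9.93 in control PoF. Control PoF exceeded control PeF by 2.79 ± 0.165, or 6.93-fold (adjusted p = 3.35e-09), and IM UF exceeded IM PeF by 3.01 ± 0.165, or 8.08-fold (adjusted p = 1.69e-09). RU UF exceeded RU PeF by 0.74 ± 0.165, or 1.67-fold (adjusted p = 0.00172). With arrays scaled by their median instead, the last difference was 0.61 and lost its call (adjusted p = 0.0884).

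The change of Inhbb between the 2 collections differed between RU and untreated follicles. The RU effect at estrus minus the RU effect at proestrus was -2.055 ± 0.233 (adjusted p = 0.000267), the only member called in that comparison (1 of 12, lower; 4.02% of all, 2.18% higher and 1.84% lower). It kept its call without any 1 array of the 4 groups. RU UF itself differed from control PoF by -0.21 (95% interval -0.56 to 0.14; adjusted p = 0.534). For indomethacin the same difference of effects was 0.22 (95% interval -0.27 to 0.71; adjusted p = 0.764); 0 of 12 members were called by limma there, 3 had an unadjusted p under 0.05, and 0% of all were called. Ordered by group mean, Inhbb ran 9.96 in IM UF, 9.82 in control PoF, 9.61 in RU UF, 8.87 in RU PeF, 7.03 in control PeF and 6.95 in IM PeF. The steps from RU UF to RU PeF and from RU PeF to control PeF passed the test, and the other neighbours were not shown to differ.

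**Figure D1:**
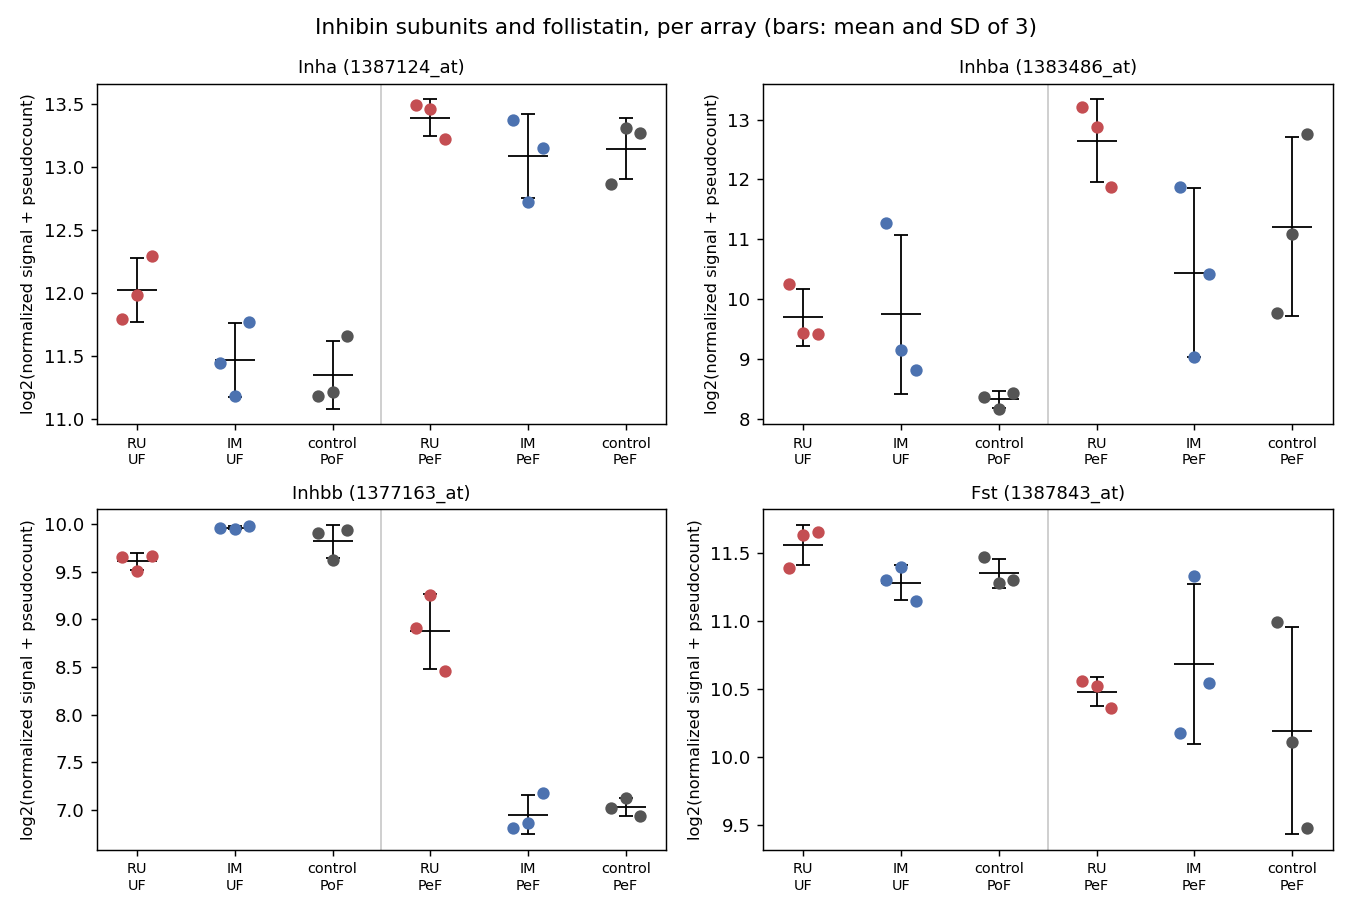
Log2 level (normalized signal plus 2.79) of the inhibin subunits and follistatin on each of the 18 arrays; points are arrays, bars the mean and SD of 3, and the grey line divides the follicles of estrus (left) from those of proestrus (right). RU PeF lie between 8.46 and 9.25 for Inhbb, above all IM PeF and control PeF arrays, and Inhba spreads widely within the proestrus groups.

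Inhba took the opposite course to Inhbb in untreated follicles. Its brighter probe set (1383486_at) stood at 8.37, 8.18 and 8.44 in control PoF, against 9.77, 11.09 and 12.76 in control PeF. The 2 groups did not overlap, and control PeF spread far more widely than control PoF. Control PoF was lower by 2.88 ± 0.715 on the log2 scale, 7.35-fold (adjusted p = 0.00398), and the second probe set (1369012_at) was lower by 2.36 ± 0.617 (adjusted p = 0.00568). Without control PeF 3 the fall was smaller, -2.10 (adjusted p = 0.025) and -1.74 (adjusted p = 0.0346).

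In RU follicles Inhba was 10.25, 9.43 and 9.42 in RU UF, against 13.20, 12.87 and 11.87 in RU PeF. The fall was 2.95 ± 0.715 (adjusted p = 0.00324) for the brighter probe set and 2.92 ± 0.617 (adjusted p = 0.00109) for the other, with no overlap. In IM follicles the levels were 11.27, 9.15 and 8.82 in IM UF, against 11.87, 9.04 and 10.43 in IM PeF. These groups overlapped, and the difference of -0.70 had a 95% interval of -2.20 to 0.81 (adjusted p = 0.489). Whether the IM change differs from the untreated one was tested as the difference of effects: 2.18 ± 1.01 with an unadjusted p of 0.0449 and an adjusted p of 0.546. Without control PeF 3 it was 1.41 (adjusted p = 0.784).

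RU PeF held the highest Inhba mean of the 6 groups, 12.65, but whether its difference from control PeF passed depended on the setting. With quantile normalization of all arrays it was 1.44 (95% interval -0.07 to 2.94; adjusted p = 0.231) and 1.87 (0.57 to 3.17; adjusted p = 0.0727) for the brighter and the dimmer probe set. Without control PeF 3, the control array highest in Inhba, the values were 2.20 (adjusted p = 0.0595) and 2.49 (adjusted p = 0.0175), and without the 3 dimmest arrays both passed (2.18, adjusted p = 0.0232, and 2.49, adjusted p = 0.00628). With median scaling of all arrays the dimmer probe set passed (2.24, adjusted p = 0.0278). IM PeF differed from control PeF by -0.76 in the brighter probe set (adjusted p = 0.671), and by 0.01 without control PeF 3. Against IM PeF the dimmer probe set was 2.61 ± 0.617 higher (6.12-fold; adjusted p = 0.0168), and the brighter one 2.20 higher without passing (adjusted p = 0.0903). That call was lost without IM PeF 2 (2.01, adjusted p = 0.121), IM PeF 3 (0.063), RU PeF 1 (0.0764) or RU PeF 2 (0.0651).

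At estrus both drugs had Inhba above control PoF on every array of the brighter probe set, and neither difference passed the test. RU UF differed by 1.37 (95% interval -0.14 to 2.87; adjusted p = 0.294) and IM UF by 1.42 (-0.08 to 2.92; adjusted p = 0.75). The IM value was 0.66 without IM UF 1. In the dimmer probe set RU UF was 1.30 above control PoF with no overlap (adjusted p = 0.235), while IM UF overlapped it (0.71, adjusted p = 0.943). Fitted on RU UF and control PoF alone, whose spread is small, the RU difference was 1.35 with an adjusted p of 0.0013. By group mean of the brighter probe set, RU PeF stood first at 12.65, then control PeF at 11.21, IM PeF at 10.44, IM UF at 9.75, RU UF at 9.70 and control PoF at 8.33, and no neighbours in this order passed the test over all 18 samples.

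Inha (1387124_at), the subunit common to both inhibins, fell with time under all 3 treatments. Its level was 11.18, 11.21 and 11.66 in control PoF, against 12.87, 13.31 and 13.27 in control PeF. It fell 3.49-fold there (-1.80 ± 0.188; adjusted p = 1.28e-06), 2.58-fold in RU follicles (-1.37 ± 0.188; adjusted p = 1.92e-05) and 3.07-fold in IM follicles (-1.62 ± 0.188; adjusted p = 4.3e-06). The 3 falls had no overlap between the times.

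Inha was higher in RU UF than in control PoF. Its levels were 11.79, 11.99 and 12.30 in RU UF and 11.45, 11.18 and 11.77 in IM UF, against 11.18, 11.21 and 11.66 in control PoF. The RU arrays lay above all control arrays, by 0.68 ± 0.188 or 1.60-fold (adjusted p = 0.0314), and the IM arrays overlapped them (0.12, 95% interval -0.28 to 0.51; adjusted p = 0.993). The RU call was lost without RU UF 2 (adjusted p = 0.0794), RU UF 3 (0.156), control PoF 1 (0.137) or control PoF 2 (0.128), with median scaling (0.209) and with the unscaled signals, where the difference was 0.05. RU UF against IM UF gave 0.56 (adjusted p = 0.0879).

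At proestrus Inha differed little between treatments. It stood at 13.49, 13.47 and 13.22 in RU PeF, 13.38, 12.72 and 13.16 in IM PeF, and 12.87, 13.31 and 13.27 in control PeF. The 3 groups overlapped, with differences from control PeF of 0.24 for RU (95% interval -0.15 to 0.64; adjusted p = 0.453) and -0.06 for IM (-0.46 to 0.33; adjusted p = 0.909). By group mean Inha ran 13.39 in RU PeF, 13.15 in control PeF, 13.09 in IM PeF, 12.02 in RU UF, 11.47 in IM UF and 11.35 in control PoF. No neighbours of the same time passed the test in this order, and every proestrus array was above every estrus array.

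Differences between the log2 levels of 2 genes on the same array were also compared between groups, using the quantile-normalized levels. Inhbb minus Inha averaged -4.52 ± 0.28 in RU PeF, -6.14 ± 0.38 in IM PeF and -6.12 ± 0.25 in control PeF (SD, n = 3 each), and at estrus -2.42 ± 0.26 in RU UF, -1.51 ± 0.28 in IM UF and -1.53 ± 0.23 in control PoF. RU PeF exceeded control PeF by 1.60, and RU UF was below control PoF by 0.89 (difference -0.89). Both had no overlap, and the exact two-sided permutation p was 0.1 each, the smallest that 3 against 3 allows. The IM differences were -0.02 at proestrus and 0.02 at estrus (exact permutation p = 0.9 each).

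Inhba minus Inha overlapped between each drug and its control at both times (differences from -0.70 to 1.30, exact permutation p from 0.2 to 0.6). Fst minus Inhba was 1.14, 2.21 and 2.24 in RU UF, 0.03, 2.25 and 2.33 in IM UF, and 3.10, 3.11 and 2.86 in control PoF. Both treated groups lay wholly below control PoF, by 1.16 and 1.49 on average (exact permutation p = 0.1 each, the smallest possible). At proestrus it was -2.64, -2.35 and -1.50 in RU PeF, -1.70, 2.30 and 0.12 in IM PeF, and 1.22, -0.98 and -3.28 in control PeF, and the groups overlapped.

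**Figure D2:**
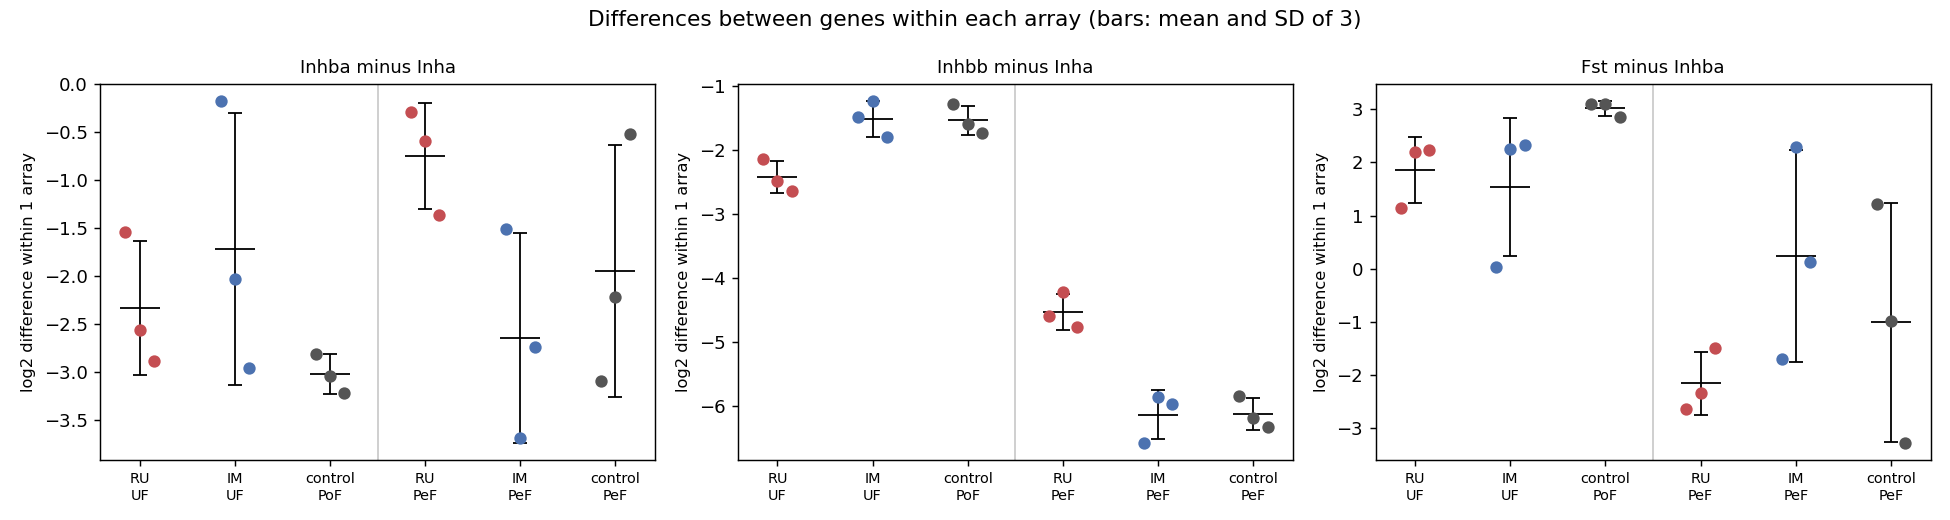
Difference in log2 level between 2 genes within each array; points are arrays and bars the mean and SD of 3, with estrus left and proestrus right of the grey line. For Inhbb minus Inha, RU PeF lie above and RU UF below all IM and control arrays of their time.

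Fst (chr2:47856345-47863670), which neutralizes activin, was higher at estrus in untreated follicles. Its brighter probe set (1387843_at) was 11.48, 11.28 and 11.30 in control PoF, against 11.00, 10.11 and 9.47 in control PeF. Every PoF array was above every PeF array, by 1.16 ± 0.283 or 2.23-fold (adjusted p = 0.00348), and the second probe set (1372750_at) was 2.63-fold higher (adjusted p = 0.00383). Without control PeF 3 the rises were 0.80 (adjusted p = 0.0206) and 0.85 (adjusted p = 0.0158).

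In RU follicles Fst was 11.39, 11.64 and 11.66 in RU UF, against 10.56, 10.52 and 10.36 in RU PeF, a rise of 1.08 ± 0.283 (2.11-fold; adjusted p = 0.00554). In IM follicles it was 11.30, 11.40 and 11.15 in IM UF, against 10.17, 11.33 and 10.55 in IM PeF. The IM groups overlapped because IM PeF 2 stood as high as the estrus arrays, and the difference was 0.60 (95% interval 0.003 to 1.19; adjusted p = 0.115). Without IM PeF 2, IM UF 2 and control PeF 3, the 3 dimmest arrays, it was 0.86 and called (adjusted p = 0.0033).

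Fst was not called for either drug against the controls of the same time. The 4 differences of the brighter probe set ran from -0.07 to 0.49 with adjusted p from 0.497 to 1. The second probe set ran the other way in RU UF against control PoF (-0.39 with no overlap, adjusted p = 0.599), and passed with only these groups in the fit (-0.38, adjusted p = 0.0368). Within control PeF, IM PeF and RU UF the array highest in Inhba was the lowest in Fst, by the brighter probe sets. In control PeF 3, the dimmest array, Inhba was 12.76 and Fst 9.47. They were 11.87 and 10.17 in IM PeF 1, and 10.25 and 11.39 in RU UF 1. The other groups did not show this. RU PeF 1 was the highest of its group in both, at 13.20 and 10.56. In IM UF and control PoF the array highest in Inhba was the middle one in Fst. With 3 arrays a group this is a description of those arrays.

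Fstl3, the other activin-binding protein, was lower in RU UF than in any other estrus group. Its tested probe set (1379440_at) stood at 5.99, 5.98 and 5.84 in RU UF and 6.78, 7.71 and 7.04 in IM UF, against 7.53, 7.47 and 7.31 in control PoF. The RU arrays lay below all others of that time. RU UF was lower than control PoF by 1.5 ± 0.342 on the log2 scale, 2.83-fold (adjusted p = 0.00981), and this call held without any 1 array of the 2 groups. Its difference from IM UF, -1.24 ± 0.342 (adjusted p = 0.0342; 1 member called of 12, lower, and 6.95% of all, 3.49% higher and 3.45% lower), was lost without IM UF 2 (0.173), IM UF 3 (0.0724), RU UF 1 (0.0842), RU UF 2 (0.0888) or RU UF 3 (0.109).

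At proestrus Fstl3 was dimmer in all groups. It was 5.36, 5.30 and 4.28 in RU PeF, 5.79, 6.11 and 5.58 in IM PeF, and 6.02, 4.91 and 6.32 in control PeF. The RU and control arrays overlapped (-0.77, 95% interval -1.49 to -0.05; unadjusted p = 0.0371, adjusted p = 0.181). Leaving out 1 array moved this to -0.42 without RU PeF 3, to -0.49 without control PeF 3 and to -1.19 without control PeF 2, where it passed (adjusted p = 0.0276). With time Fstl3 rose 3.22-fold in control follicles (1.69 ± 0.342; adjusted p = 0.000826), 2.55-fold in IM follicles (1.35 ± 0.342; adjusted p = 0.00524) and 1.94-fold in RU follicles (0.96 ± 0.342; adjusted p = 0.0339). The RU rise was lost without RU PeF 3 (0.61, adjusted p = 0.191) or any 1 of the RU UF arrays (adjusted p from 0.0598 to 0.0819).

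The promoter of Fstl3 (gene chr7:10574195-10579844, promoter chr7:10579795-10580094, minus strand) is shown because it alone of the 8 promoters held a match to AGAACA.
Fstl3: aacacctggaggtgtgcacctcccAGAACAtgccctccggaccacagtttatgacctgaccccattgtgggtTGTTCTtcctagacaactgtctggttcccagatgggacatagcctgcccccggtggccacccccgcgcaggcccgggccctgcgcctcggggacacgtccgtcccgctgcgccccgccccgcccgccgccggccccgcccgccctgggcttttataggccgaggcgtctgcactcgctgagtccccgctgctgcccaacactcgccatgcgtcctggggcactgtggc
The 2 capital stretches begin 226 and 178 bases before the start site, the second read on the opposite strand, and 20.7% of the 33469 promoters held this run of letters. The Inhbb window held no such match. Any bearing of these stretches on the level of Fstl3 was not tested. The second Fstl3 probe set (1370120_at) was too dim to be tested. It was above background on 2 of 3 RU UF arrays, 2 of 3 IM UF arrays and all 3 control PoF arrays, and on 0 arrays of RU PeF, IM PeF and control PeF.

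**Figure D3:**
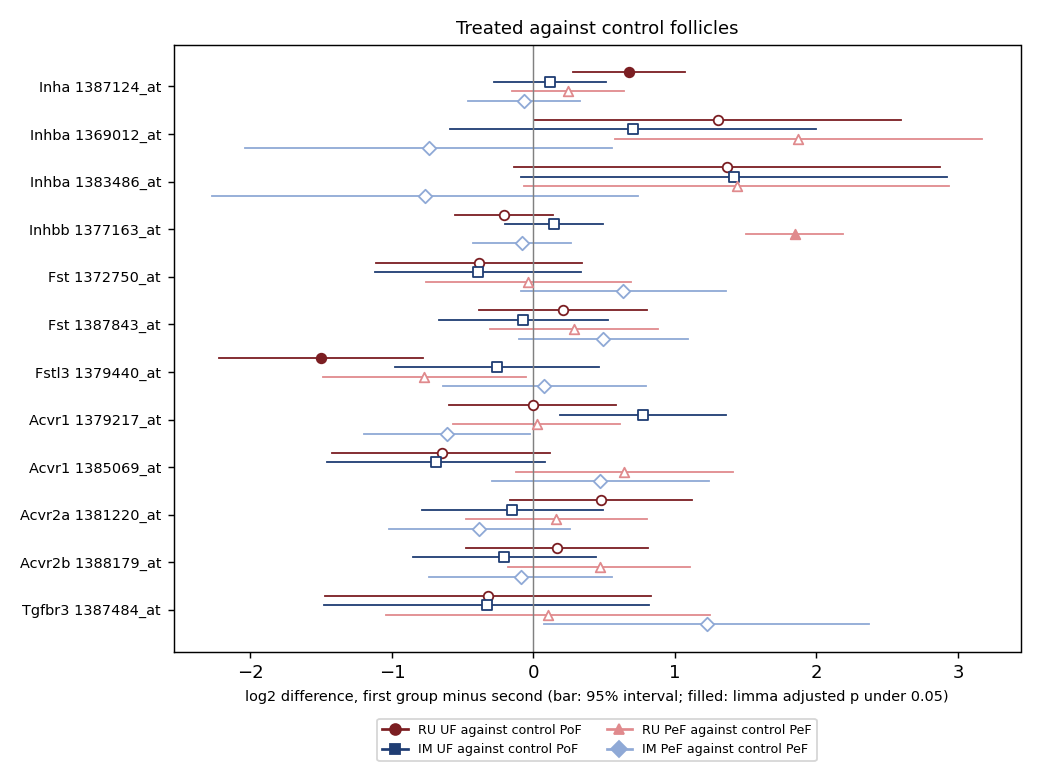
Log2 difference of each treated group from the untreated group of its time for the 12 tested member probe sets, with 95% intervals; filled symbols have a limma adjusted p under 0.05. The filled symbols are Inhbb in RU PeF, and Inha and Fstl3 in RU UF; no IM symbol is filled.

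The type II receptors were lower at estrus in untreated follicles, except with the unscaled signals, where Acvr2b was 0.22 and Acvr2a 0.64 higher. Acvr2b (1388179_at; chr8:128016589-128056193), which binds activin with high affinity, was 4.92, 4.74 and 3.98 in control PoF, against 5.12, 5.64 and 5.83 in control PeF. The groups did not overlap, and PoF was lower by 0.99 ± 0.307, 1.98-fold (adjusted p = 0.0165). It was lower by 1.29 in RU UF than in RU PeF (adjusted p = 0.00284) and by 1.10 in IM UF than in IM PeF (adjusted p = 0.0102). The control call was lost without control PeF 3 (-0.84, adjusted p = 0.0528) or control PoF 3 (-0.70, adjusted p = 0.105), and the IM call without IM PeF 1 (adjusted p = 0.055).

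Acvr2a (1381220_at; chr3:53614143-53701933), the other type II receptor, was 6.49, 6.50 and 6.49 in control PoF, against 6.90, 6.95 and 8.11 in control PeF. PoF was lower by 0.83 ± 0.305 (adjusted p = 0.0385), with control PeF 3 far above the other arrays. Without that array the difference was -0.43 and lost its call (adjusted p = 0.223), as it did without any 1 control PoF array (adjusted p from 0.0805 to 0.0842). RU UF differed from RU PeF by -0.51 (adjusted p = 0.197) and IM UF from IM PeF by -0.60 (adjusted p = 0.145), which passed without the 3 dimmest arrays (-0.80, adjusted p = 0.0235). With median scaling the control calls of Acvr2b (adjusted p = 0.065) and Acvr2a (-0.46, adjusted p = 0.242) were lost, as they were with only the groups compared (0.0797 and 0.0898).

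Acvr1 (chr3:63387378-63506980), a type I receptor used mainly by bone morphogenetic proteins, gave different answers with its 2 tested probe sets. The brighter (1379217_at) was 6.87, 6.93 and 6.81 in control PoF, against 7.80, 7.99 and 9.17 in control PeF, a fall of 1.46 ± 0.28 (adjusted p = 0.00053). Without control PeF 3 the difference was -1.03 (adjusted p = 0.00132). The dimmer (1385069_at) differed by -0.29 (adjusted p = 0.56) in the same arrays. In IM follicles the brighter differed by -0.07 (adjusted p = 0.875) and the dimmer fell by 1.45 (adjusted p = 0.00526), while in RU follicles both fell, by 1.48 and 1.58 (adjusted p = 0.000405 and 0.00229). In control and IM follicles the probe sets thus differed in size and call, both with a lower mean at estrus. With the unscaled signals the control difference of the brighter probe set turned to 0.023, where the median of all probe sets was 1.28.

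No receptor was called for either drug. The largest differences were in the brighter Acvr1 probe set, 7.41, 7.76 and 7.76 in IM UF against 6.87, 6.93 and 6.81 in control PoF (0.78 ± 0.28; unadjusted p = 0.0126, adjusted p = 0.535), and in Tgfbr3, 4.51, 4.46 and 5.30 in IM PeF against 3.91, 3.38 and 3.31 in control PeF (1.22 ± 0.546; unadjusted p = 0.038, adjusted p = 0.422). In both the IM arrays lay above all control arrays. The IM effect on that Acvr1 probe set at estrus minus that at proestrus was 1.39 ± 0.395 (unadjusted p = 0.00256, adjusted p = 0.427), and 0.96 without control PeF 3. The dimmer Acvr1 probe set ran the other way, at -0.69 in IM UF against control PoF (adjusted p = 0.791) and -1.16 for the difference of effects (unadjusted p = 0.0375, adjusted p = 0.538). Tgfbr3 (1387484_at; chr14:2634294-2810269) was near background, above it on 1 of 3 control PeF arrays and on 2 of 3 in RU UF and in IM UF, and its time differences did not pass (RU -0.01, IM -1.14 and control 0.41). Without IM UF 2, 1 of the dimmest arrays, the IM difference was -1.74 and passed (adjusted p = 0.0235), as it did without all 3 dimmest arrays (-1.93, adjusted p = 0.0179). The third Acvr1 and second Tgfbr3 probe sets were above background on 8 and 12 of 18 arrays and were not tested.

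**Figure D4:**
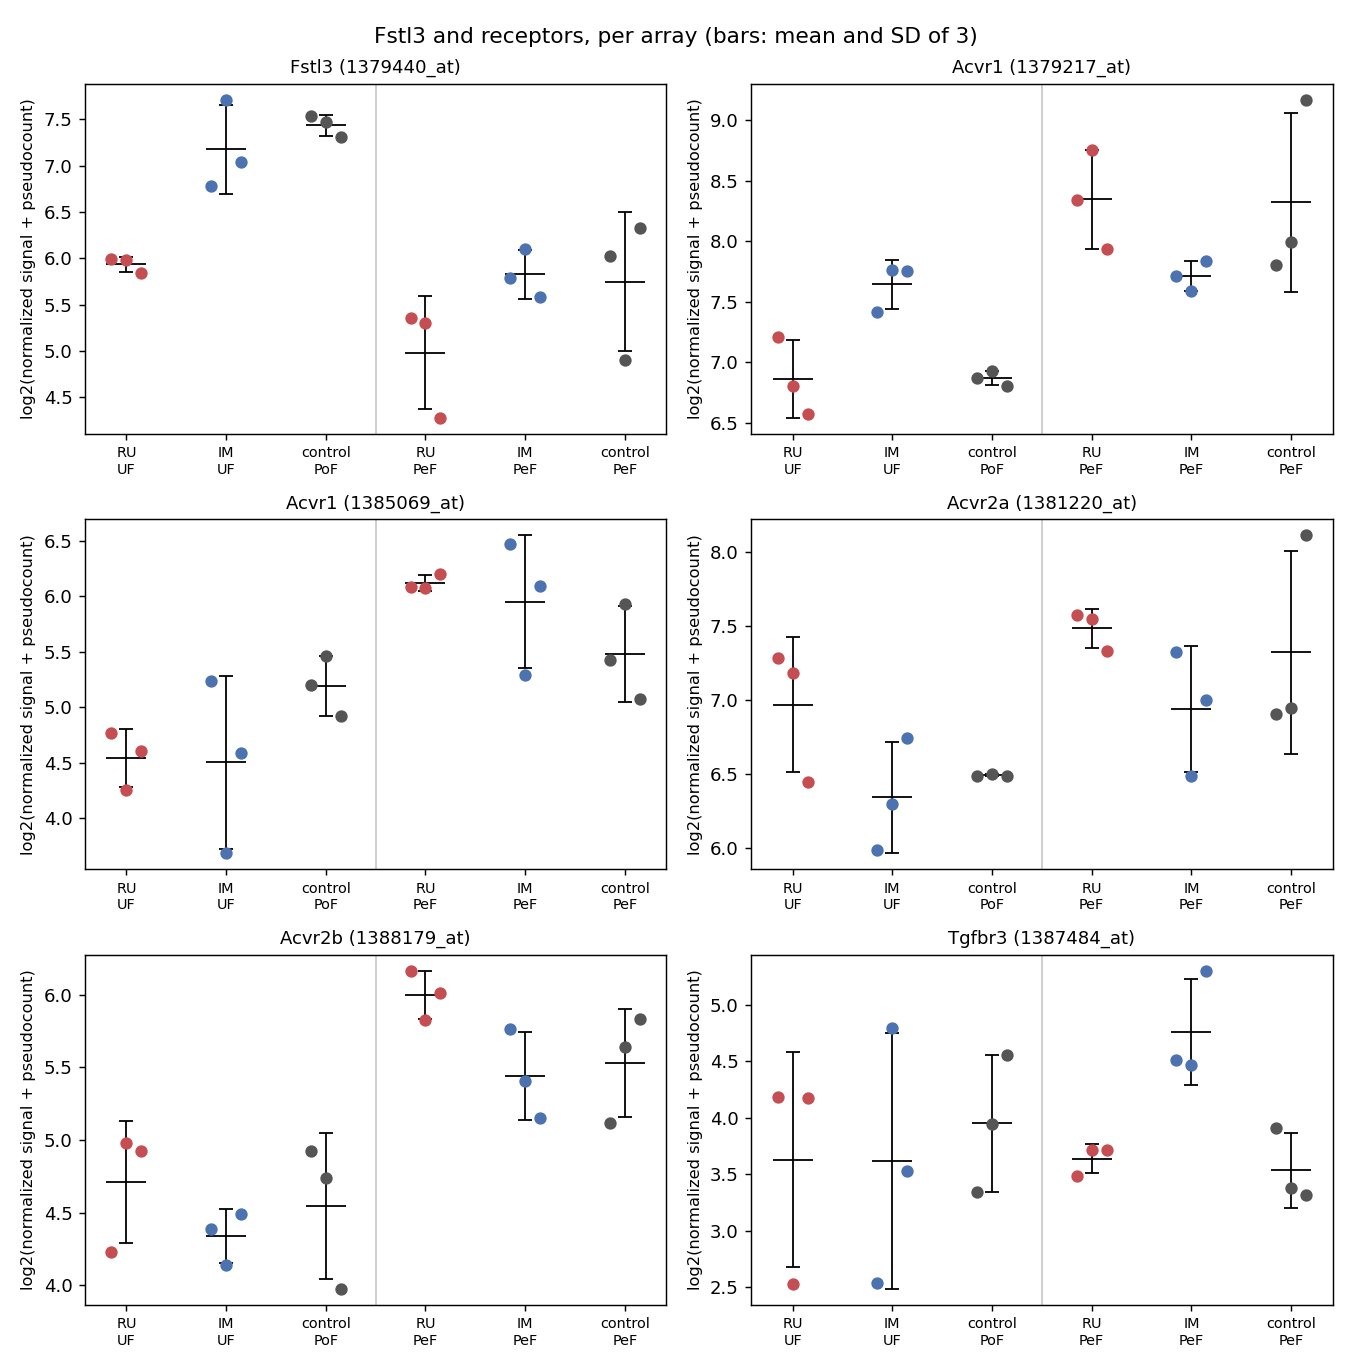
Log2 level of Fstl3 and of the receptor probe sets on each of the 18 arrays; points are arrays, bars the mean and SD of 3, with estrus left and proestrus right of the grey line. RU UF lie between 5.84 and 5.99 for Fstl3, below every IM UF and control PoF array, and control PeF 3 is the highest array for Acvr1 (1379217_at) and Acvr2a.

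**Figure D5:**
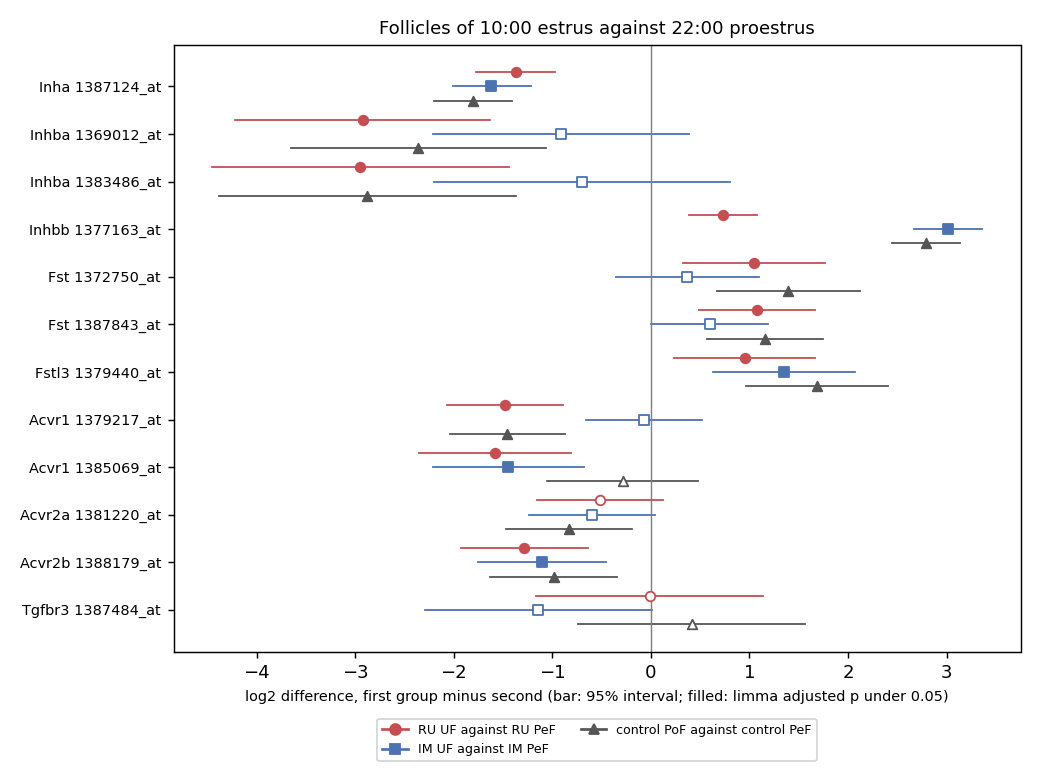
Log2 difference of the follicles of estrus from those of proestrus under each treatment, with 95% intervals; filled symbols have a limma adjusted p under 0.05. Inha lies left of 0 and Inhbb and Fstl3 right of 0 under all 3 treatments, with Inhbb at 0.74 in RU, 3.01 in IM and 2.79 in untreated follicles.

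Among 12 listed genes of activin signal transduction 10 were tested, and 1 rose and 1 fell in RU PeF (8.53% of all tested genes were called, 3.77% higher and 4.75% lower). Smad3, which carries the activin signal to the nucleus, rose 2.31-fold (1.21 ± 0.177; adjusted p = 0.000469), and the Smad repressor Skil fell by 0.80 ± 0.122 (adjusted p = 0.000658; 0.214 with median scaling; 0.15 higher with the unscaled signals). The list's median difference was 0.29, against 0.05 for all tested genes. Smad3, like Inhbb, was also higher with time in untreated follicles (1.03 ± 0.177; adjusted p = 0.000207), and its RU effect at estrus minus that at proestrus was -1.12 ± 0.251 (adjusted p = 0.017), the 1 call of the 10 there, where 4.44% of all genes were called (2.27% higher, 2.17% lower). In RU UF against control PoF 1 of the 10 rose, Smad2 by 0.57 (adjusted p = 0.0425; 0.442 with median scaling; a difference of -0.15 with the unscaled signals), where 9.98% of all genes were called (4.52% higher, 5.46% lower). In IM PeF and IM UF against their controls 0 of 10 were called by limma (1 and 1 had an unadjusted p under 0.05), where 0% of all genes were called at proestrus and 0.0481% at estrus, all lower.

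With time 2 of the 10 listed signalling genes rose and 5 fell in untreated follicles (44.1% of all genes called, 24.4% higher and 19.7% lower). It was 1 and 4 in RU follicles (42.7%, 21.3% higher and 21.4% lower) and 2 and 4 in IM follicles (37.8%, 19.4% higher and 18.4% lower). The 4 IM falls were lost as calls with median scaling (adjusted p = 0.203 for Smad4, 0.0734 for Zfyve9, 0.0514 for Skil and 0.242 for Smurf2). In RU follicles Pmepa1 and Smad7, feedback inhibitors that TGF-beta family signals induce, fell by 3.36 ± 0.418 (adjusted p = 6.42e-06) and 2.74 ± 0.529 (adjusted p = 0.000502). Both were also lower with time in untreated follicles (-1.84, adjusted p = 0.00202, and -1.39, adjusted p = 0.0444), the Smad7 call being lost with median scaling (0.0824). In untreated follicles the smallest adjusted p belonged to Smad3 and Skil, with Skil lower by 0.64 (adjusted p = 0.000494; 0.203 with median scaling; 0.78 higher with the unscaled signals). Zfyve9 and Smurf2, also among the 5 that fell there, lost their calls with median scaling (adjusted p = 0.33 and 0.201). With the unscaled signals they were 0.73 and 0.75 higher.

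Of 18 listed related ligands, receptors and processing enzymes, 15 had a probe set and 10 were tested. In RU PeF, where 8.53% of all genes were called, 0 rose and 2 fell: Bambi, a decoy receptor of the family, by 1.12 ± 0.256 (adjusted p = 0.0129), and Igsf1, an immunoglobulin superfamily protein, by 1.10 ± 0.307 (adjusted p = 0.0373). Igsf1 was also lower in RU UF (-1.0 ± 0.307; adjusted p = 0.0498), the only call of the 10 there, where 9.98% of all genes were called. With median scaling these calls were lost (Bambi 0.128 and Igsf1 0.121 in RU PeF, Igsf1 0.0547 in RU UF, as adjusted p). With time 0 rose and 6 fell in untreated follicles (44.1% of all genes called), led by the proprotein convertases Pcsk5 (9.06-fold lower; adjusted p = 9.51e-10) and Pcsk6 (4.61-fold lower; adjusted p = 0.00016), and 1 rose and 6 fell in RU follicles (42.7%) and in IM follicles (37.8%). In untreated follicles the calls of Bambi, Furin and Tgfbr1 were lost with median scaling (adjusted p = 0.144, 0.584 and 0.0823). With the unscaled signals Gdf11, Bambi, Furin and Tgfbr1 turned, to 0.114, 0.512, 0.835 and 0.674 higher. In RU and IM follicles the 1 rise was Fstl1, and its call was lost with median scaling (adjusted p = 0.403 and 0.125). Furin lost its call there too (0.0878 and 0.116), and Tgfbr1 did in IM follicles (0.0965). The list's median in untreated follicles was -0.68, against 0.08 for all tested genes.

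Of 12 listed regulators of inhibin and follistatin transcription, a list that includes the receptors Fshr and Lhcgr, 10 were tested. In RU PeF, where 8.53% of all genes were called, 1 rose, Gata4, a GATA factor (1.02 ± 0.215; adjusted p = 0.00774), and 1 fell, Nr5a2, a nuclear receptor that is also in the list of granulosa markers (3.94-fold; adjusted p = 0.0019). In RU UF 1 rose, Lhcgr, the receptor of luteinizing hormone (5.87-fold; adjusted p = 0.0186), where 9.98% of all genes were called. With time 5 rose and 2 fell in untreated follicles (44.1% of all genes called): Nr5a1, a nuclear receptor that drives steroidogenic genes, was 6.20-fold higher (adjusted p = 1.4e-06) and Crem, a cAMP-responsive regulator that includes repressor forms, 6.96-fold lower (adjusted p = 1.48e-06). Cebpb, the other that fell, lost its call with median scaling (adjusted p = 0.105) and was 0.69 higher with the unscaled signals. The corresponding counts were 4 and 1 in RU follicles (42.7%) and 3 and 2 in IM follicles (37.8%). In IM PeF and IM UF against their controls limma called 0 of 10 in this list (1 and 2 with an unadjusted p under 0.05) and 0 of 10 in the list of ligands, receptors and enzymes (1 and 0).

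The cell type markers moved with some of these comparisons. The 8 smooth muscle and pericyte markers summed to 214 to 237 normalized signal units in RU PeF, 324 to 387 in IM PeF and 456 to 460 in control PeF, with 0 of 8 called higher and 3 lower in RU PeF (8.53% of all genes). At estrus they summed to 403 to 497 in RU UF, 885 to 991 in IM UF and 640 to 808 in control PoF. Against control PoF limma called 0 of the 8 in RU UF (9.98% of all genes) and 0 in IM UF (0.0481%). Of the 8, 5 and 1 had an unadjusted p under 0.05. The 8 tested granulosa markers summed to 7290 to 9010 in RU PeF and 8730 to 9730 in control PeF, with 0 called higher and 2 lower, where 8.53% of all genes were called. Their median log2 difference ran the other way, at 0.31 against 0.05 for all tested genes. In untreated follicles they summed to 12600 to 13200 at estrus, but 2 rose and 3 fell with a median of -0.38. In RU UF the granulosa markers summed to 10800 to 12500. There 1 was higher than in control PoF, Cyp19a1 (10.7-fold), and 2 were lower (9.98% of all genes), with a median of 0.10. The 2 lower ones, Serpine2 and Cdh2, lost their calls with median scaling (adjusted p = 0.0709 and 0.206). So did Gja1, called lower in RU PeF (0.335), and Serpine2, called lower with time in untreated follicles (0.15). With the unscaled signals these last 2 differences turned, to 0.29 and 0.32 higher. With time 5 of the 8 smooth muscle markers rose and 1 fell in untreated follicles, and of 5 theca markers, which summed to 1700 to 1840 in control PoF and 3970 to 4760 in control PeF, 0 rose and 3 fell, where 44.1% of all genes were called. In RU UF the theca markers summed to 2740 to 4080, with 2 higher and 2 lower than in control PoF (9.98% of all genes). The 7 endothelial ones summed to 534 to 776 in RU UF and 723 to 748 in IM UF, against 852 to 910 in control PoF. Of the endothelial markers limma called 0 of 7 in RU UF (9.98% of all genes), and 4 had an unadjusted p under 0.05. In IM UF it called 0 of 7 (0.0481% of all genes), and 0 had such a p. The 3 tested oocyte markers summed to 63.7 to 156 in RU PeF and 11.5 to 87.6 in control PeF, and the endothelial ones to 758 to 961 in RU PeF and 1100 to 1260 in control PeF. In RU PeF 0 of the 3 oocyte markers were called by limma. The 5 theca markers summed to 2570 to 3520 in RU PeF, against 3970 to 4760 in control PeF. The 5 tested leukocyte markers summed to 114 to 127, against 151 to 197. Of each 0 were higher and 1 lower (8.53% of all genes). Of the 7 endothelial ones 0 were higher and 2 lower in RU PeF (8.53% of all genes). In IM PeF the endothelial ones summed to 827 to 972, also below control PeF. There limma called 0 of 7 (0% of all genes), and 3 had an unadjusted p under 0.05. The sums are on the linear scale, so the brightest markers weigh most in them. The part of these shifts in the levels of the members was not tested.

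The genes most like 4 members over the 6 group means, by the root mean square difference in log2 after centring, were drawn from 10390 other genes and are given as a description. For Inhbb they were Mme (0.29), LOC102550366 (0.29) and Ildr2 (0.31), with Inhbb itself ranging over 3.01. For Inha they were Chd7 (0.10), Zxda (0.12) and Abtb3 (0.12), and for Fst Slc44a2 (0.055), Ddb2 (0.073) and Strada (0.076). Those nearest to Inhba, which ranged over 4.32, were Bpifb1 (0.36), Zdbf2 (0.39) and Glis1 (0.41). These genes were dim at estrus, with means in control PoF of 1.98, 1.95 and 2.69, where Inhba was at 8.33. Their levels there lay near the bottom of the scale, which limits the likeness.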

How the data were processed

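Each of the 18 samples has 1 array. Its deposited values are intensity, on a linear scale and never under 1. The submitters' processing notes name MAS5 without a version, role or scaling target. Since the deposited medians differed between arrays, the signals were quantile-normalized after the 57 control probe sets had been removed, and log2 was taken after adding 2.79, the 20th percentile of all values. The filter kept a probe set if at least 3 of the 18 arrays had it above that array's own median. Background on an array was the highest of 27 control probe sets without a spiked target. The number of arrays limits the precision.

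For the tests limma 3.58.1 (R 4.3.3) was fitted to all samples together, a mean for each group, leaving 12 residual degrees of freedom, with a trend of the variance on level. The p-values were adjusted by Benjamini-Hochberg over all tested probe sets in each of 11 comparisons, at 0.05. The script was tested on simulated data. Differences within an array were tested by exact two-sided permutation. Fold changes are of signal plus pseudocount and understate those of dim genes.

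The named genes were all listed members with all their probe sets, up to 2 called genes per list and comparison with the smallest adjusted p, and the 3 nearest genes to each of 4 members. Some called list genes are also named where the scaling changed their call or direction. The brightest probe set stood for a gene in lists. The members, lists and tests were chosen with earlier results of these data known. Alternatives were the signals as deposited, median scaling, other pseudocounts, no filter, the replicate number as a block, only the groups compared, and leaving out arrays. Among 45 pairs of samples with the same number in different groups, the correlation of deviations ran from -0.30 to 0.12. No deviation shared by number was seen, so the main fit used no block. With 3 arrays a group this cannot exclude a pairing of samples. The plots used matplotlib 3.10.9 (Python 3.11.15).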

Additional observations from a re-analysis of the deposited data

Results flagged for a closer look

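The effect of RU486 on Inhbb differed between the 2 collections. The RU effect at estrus minus that at proestrus was -2.055 ± 0.233 on the log2 scale (limma adjusted p = 0.000267): all 3 RU PeF arrays lay above the 3 control PeF arrays, while RU UF and control PoF overlapped.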

How the results depend on the processing

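Of the 32 called differences of members, 32 kept direction and call with a pseudocount of 1, a pseudocount at the median and the replicate block, 30 without the 3 dimmest arrays, 29 with only the groups compared, 28 with no filter and 27 with median scaling. With the signals as deposited, whose medians over all probe sets shifted by -1.45 to 1.28 on the log2 scale, 7 kept their call, 22 lost it and 3 turned: Acvr1 (1379217_at, 0.023), Acvr2a (0.64) and Acvr2b (0.22) in control PoF against control PeF. The number of members called was then 0 for RU PeF against control PeF, RU UF against control PoF, RU PeF against IM PeF, RU UF against IM UF and the difference of RU effects, 4 for the control times, 2 for the RU times and 1 for the IM times. With median scaling it was 2 for RU PeF and 1 for RU UF against their controls, with no filter 1 for RU UF against control PoF and 0 against IM UF, without the dimmest arrays 3 for RU PeF against control PeF and 9 for the IM times, and with only the groups compared 5 for RU UF against control PoF and 4 against IM UF. Leaving out 1 array gave 1 to 2 for RU PeF, 0 to 0 for IM PeF, 1 to 2 for RU UF and 0 to 0 for IM UF against their controls, 8 to 10 for the control times, 8 to 10 for the RU times, 4 to 6 for the IM times, 1 to 3 for RU PeF against IM PeF, 0 to 1 for RU UF against IM UF, 1 to 1 for the difference of RU effects and 0 to 0 for that of IM effects. With the replicate block the number for the control times was 10. The causes were not tested. Tgfbr3 and the 3 untested probe sets lay near background, which limits what they can show.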
